A study of Mus musculus with 2 samples.

Results

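The genes described are 7 regulators of G protein signalling (RGS), namely Rgs1, Rgs2, Rgs3, Rgs10, Rgs14, Rgs16 and Rgs19, in single regulatory T cells (Tregs) of the mouse spleen. They are 7 of 28692 genes listed in both count matrices, were chosen by name, and were counted as measured at 30 or more unique molecular identifiers (UMIs, each a captured transcript) over both libraries. All 7 reached that number, as did 9224 of all genes. The 17 other genes counted with the family did not, among them Rgs7bp and Rgs9bp, which encode binding proteins of RGS proteins.

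The series compared splenic CD4 Tregs without PPARg (PPARg-negative) and with a low level of it (PPARg-low). PPARg is a lipid-sensing nuclear receptor known from the Tregs of fat and other nonlymphoid tissues. Both groups came from 8-week-old male B6 mice that carried Pparg-Tdt and Foxp3-Gfp, fluorescent reporters of Pparg and of Foxp3, the factor that defines Tregs. Cells from 2 or 3 spleens were pooled and sorted, and each group was 1 library made with 10x Genomics 3' chemistry. No treatment, deletion or infection is named for either group. Since each group is 1 library, its spread over mice is unknown, and neither a test between groups nor a p-value is given. Intervals are exact 95% intervals that cover counting error only.

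RGS proteins switch off heterotrimeric G proteins: their shared domain speeds the hydrolysis of GTP by the alpha subunit, which ends the signal of the receptor upstream. In lymphocytes those receptors include the chemokine receptors and the receptor for sphingosine 1-phosphate, which together set where a cell moves and when it leaves a lymphoid organ. Rgs1, Rgs2, Rgs3 and Rgs16 belong to the R4 subfamily, Rgs10 and Rgs14 to the R12 subfamily, and Rgs19 to the RZ subfamily.

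Promoter sequence is shown for 3 members. Rgs2 and Rgs16 were called higher in PPARg-low cells in every class of cells examined below, and Rgs10 had the most UMIs of the 7 and was lower. Each sequence is the 250 bases before a transcription start in RefSeq annotation of GRCm38.p6, written 5′ to 3′ on the gene's own strand. Capitals mark matches to the motifs searched, on either strand. The windows are chr1:144004150-144004399 on the minus strand for Rgs2, chr1:153740103-153740352 on the plus strand for Rgs16 and chr7:128418173-128418422 on the minus strand for Rgs10.
Rgs2: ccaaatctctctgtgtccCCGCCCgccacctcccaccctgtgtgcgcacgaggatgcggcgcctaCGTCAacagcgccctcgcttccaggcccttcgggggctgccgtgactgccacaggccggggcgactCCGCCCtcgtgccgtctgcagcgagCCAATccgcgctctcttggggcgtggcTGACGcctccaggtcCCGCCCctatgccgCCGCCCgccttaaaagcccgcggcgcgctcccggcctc
Rgs16: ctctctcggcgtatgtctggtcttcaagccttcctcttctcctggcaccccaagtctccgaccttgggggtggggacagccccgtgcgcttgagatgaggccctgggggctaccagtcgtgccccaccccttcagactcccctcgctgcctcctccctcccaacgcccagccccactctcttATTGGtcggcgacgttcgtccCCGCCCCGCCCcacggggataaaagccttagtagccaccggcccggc
Rgs10: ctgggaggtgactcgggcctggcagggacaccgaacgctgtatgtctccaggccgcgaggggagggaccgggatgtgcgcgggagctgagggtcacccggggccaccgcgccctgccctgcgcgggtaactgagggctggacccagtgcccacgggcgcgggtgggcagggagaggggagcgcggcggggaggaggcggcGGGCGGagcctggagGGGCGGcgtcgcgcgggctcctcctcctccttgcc

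The Rgs2 window held 2 copies of TGACG, the core of the cyclic AMP response element, starting 185 and 67 bases before the start. TGACG was in 17.8% of 32851 RefSeq windows of that length, and in none of the other 7 windows of the members. The GC box GGGCGG matched 4 times in the Rgs2 window, 2 times in that of Rgs16, where the 2 matches share a base, and 2 times in that of Rgs10. It was in 32.7% of all windows. CCAAT matched 94 bases before the start of Rgs2 and, on the opposite strand, 68 bases before that of Rgs16, and was in 33.8% of all windows. The full cyclic AMP element TGACGTCA (1.55% of all windows), the AP-1 motif TGANTCA (6.75%), the NFAT motif TGGAAA (18.6%), the E-box CACGTG (6.02%) and the ETS motif CCGGAAG (6.91%) had no match in any of the 8 windows of the members. TATAAA (12.4% of all windows) matched in both Rgs3 windows and in no other. All 3 printed windows were rich in G and C, at 72.4% for Rgs2, 66.4% for Rgs16 and 76.4% for Rgs10 against a median of 52.4%. They held 30, 17 and 27 CpG pairs against a median of 6. Rgs3 and Rgs19 have 2 and 3 windows in the table, not printed here. A match is a string of letters and not evidence of binding.

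Positions are given in mm10, the build of the count matrices, from GENCODE M21. Rgs1 (ENSMUSG00000026358, chr1:144242296-144249242, minus strand) and Rgs2 (ENSMUSG00000026360, chr1:143999338-144004161, minus strand) lie 238 kb apart, with Rgs13 between them. Rgs16 (ENSMUSG00000026475, chr1:153740349-153745468, plus strand) lies 40.0 kb from Rgs8. Rgs3 (ENSMUSG00000059810) is at chr4:62559847-62704001 on the plus strand and Rgs10 (ENSMUSG00000030844) at chr7:128373621-128418758 on the minus strand. Rgs14 (ENSMUSG00000052087) is at chr13:55369732-55384687 on the plus strand and Rgs19 (ENSMUSG00000002458) at chr2:181688419-181693977 on the minus strand. The antisense genes that overlap Rgs3 (Gm11209, 0 UMIs in PPARg-negative and 4 in PPARg-low cells) and Rgs16 (Gm28513, 0 UMIs in both) held almost no counts.

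A limit of 10% mitochondrial UMIs a cell left 2633 PPARg-negative cells with 5897260 UMIs and 1619 PPARg-low cells with 2901710 UMIs. The median cell had 2171 and 1517 UMIs. Pparg itself had 0 UMIs in PPARg-negative and 43 in PPARg-low cells. The files of the second library carry the tag pos where its label reads low, which was not settled, and the label is used here. T cell markers (8 genes, Foxp3 among them) summed to 5570 UMIs per 1e6 UMIs (CPM) in PPARg-negative and 10200 in PPARg-low cells, all 8 detected in both. B cell markers (9 genes, 3 of them at 0 in each library) came to 37.0 and 45.8 CPM. Myeloid markers (11 genes, 3 and 1 of them at 0) came to 150 and 295 CPM, and all 4 platelet markers were at 0 in both. Only 1 of the 11 myeloid genes was counted as measured, so most of the myeloid sum came from that gene. Whether its UMIs came from myeloid cells was not tested. The part of other cell types in the results was not tested. No call on a member changed without the 34 PPARg-negative and 39 PPARg-low cells that carried 2 or more UMIs of other cell types' markers. Xbp1, Cst3, Bst2, Ccr9, Cd79b and Fcmr, taken as genes that Tregs themselves hold, were not used to pick those cells. Cells with UMIs of Cst3, 1 of the 11 myeloid genes, were thus not left out on its account.

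A class of cells low in ribosomal protein transcripts was far more common in the PPARg-low library. Cells with under 20% of their UMIs from ribosomal protein genes (ribosome-poor) made up 614 of 2633 PPARg-negative cells (23.3%) and 951 of 1619 PPARg-low cells (58.7%). Ribosome-poor cells were also shallower, with a median of 853 and 978 UMIs against 2455 and 2294 in the others. Their median mitochondrial share was 6.92% and 6.80% against 2.29% and 2.74%. Every member is therefore given in all kept cells and within each class.

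Of the 7 members, 3 were higher in PPARg-low cells (Rgs2, Rgs3 and Rgs16), 1 was lower (Rgs10) and 3 were not called (Rgs1, Rgs14 and Rgs19). A gene was called where the ratio of PPARg-low to PPARg-negative CPM was at least 1.5 in either direction and its interval lay on that side of 1. By the same rule 24.2% of all measured genes were called higher and 4.47% lower, and with 7 members nothing particular to the family is read from these counts. The median log2 ratio was 0.09 over the members and 0.29 over all 9224 genes, the latter a ratio of 1.22. Relative to that median, Rgs2 (2.44) and Rgs16 (3.86) stayed higher and Rgs10 (0.470) lower, Rgs3 (1.42) lost its call, and Rgs19 (0.656) gained one as lower.

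**Figure D1:**
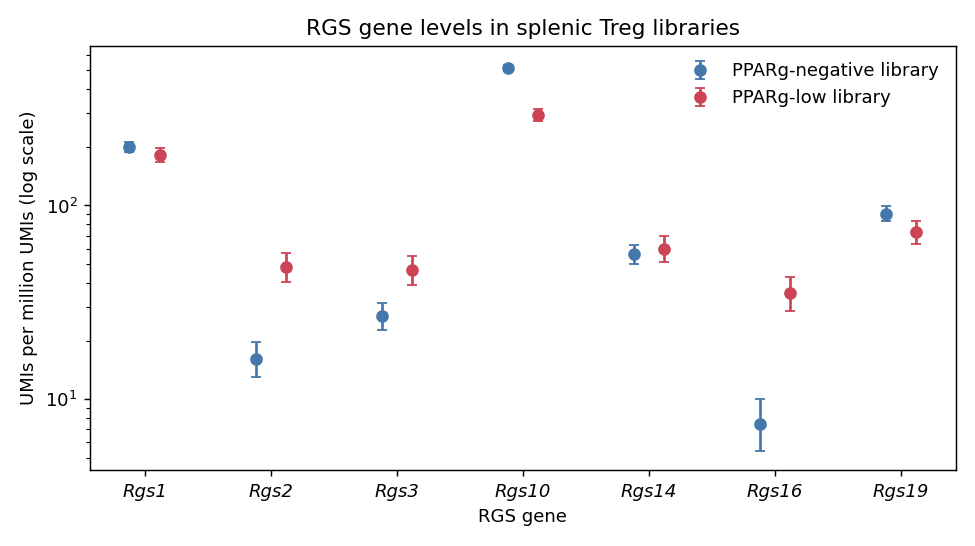
CPM (log scale) of the 7 RGS genes in all kept cells of the PPARg-negative (blue) and PPARg-low (red) libraries, 1 library each; bars are exact Poisson 95% intervals. The intervals of Rgs2, Rgs3, Rgs10, Rgs16 and Rgs19 do not overlap between the libraries, and those of Rgs1 and Rgs14 do.

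Rgs16, an R4 member known to be induced when T cells are activated, had the highest ratio. It had 44 UMIs in PPARg-negative cells, or 7.46 CPM (5.42 to 10.0), and 102 in PPARg-low cells, or 35.2 CPM (28.7 to 42.7). The ratio was 4.71 (3.28 to 6.87), and the intervals of the 2 libraries did not overlap. In ribosome-rich cells the level went from 6.68 to 33.2 CPM, a ratio of 4.97 (3.21 to 7.79), and in ribosome-poor cells from 13.7 to 38.1 CPM, a ratio of 2.78 (1.34 to 6.47). Rgs16 was thus called higher in both classes, though not in ribosome-poor cells with up to 5% mitochondrial UMIs (2.35, 0.935 to 7.02), and the PPARg-low level was close in both. Few cells carried it: 41 PPARg-negative and 77 PPARg-low cells had a UMI, and the 10 cells with most held 29.5% and 28.4% of the UMIs. Without those 10 cells in each library the ratio was 4.79. With cells of at least 750 UMIs thinned to 750 in a random draw it was 2.65 (1.38 to 5.21), still called. Mean Rgs16 UMIs per cell were then 0.0071 in PPARg-negative and 0.0188 in PPARg-low cells. They were 0.00658 and 0.0368 at a depth of 1000 UMIs, and 0.00076 and 0.0105 at 500. The direction held at each depth, but the size of the difference moved with the depth and draw.

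Rgs2, known for acting on Gq, the G protein alpha subunit that drives phospholipase C, was also higher. Its 95 UMIs in PPARg-negative cells gave 16.1 CPM (13.0 to 19.7) and its 139 in PPARg-low cells 47.9 CPM (40.3 to 56.6), a ratio of 2.97 (2.27 to 3.90). PPARg-low cells stood near the same level whatever their ribosomal share, with 50.2 CPM in the ribosome-poor class and 46.4 CPM in the ribosome-rich. PPARg-negative cells stood at 12.2 and 16.6 CPM. The ratios were 4.12 (1.96 to 9.99) and 2.79 (2.04 to 3.82), both called. Its transcripts came mostly as 1 UMI a cell: 87 of the 91 PPARg-negative and 96 of the 113 PPARg-low cells with Rgs2 had a single UMI, and 5 PPARg-low cells had 3 or more.

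Rgs3, a larger R4 member that acts on Gi and Gq proteins, was called higher over all cells but not in every setting. The level was 26.8 CPM (22.8 to 31.3; 158 UMIs) in PPARg-negative and 46.5 CPM (39.0 to 55.1; 135 UMIs) in PPARg-low cells, a ratio of 1.74 (1.37 to 2.20). Within ribosome-rich cells it was 24.2 against 46.4 CPM, a ratio of 1.91 (1.43 to 2.55). Within ribosome-poor cells the levels were 47.2 and 46.8 CPM, a ratio of 0.990 (0.625 to 1.59), so the call was absent there. The ratio was 1.21 (0.773 to 1.88) in cells thinned to 750 UMIs and 1.45 (1.15 to 1.84) against totals without ribosomal and mitochondrial genes, neither called.

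Rgs1 restrains the response of lymphocytes to chemokines and to sphingosine 1-phosphate. Its level was 200 CPM (189 to 212; 1182 UMIs) in PPARg-negative and 183 CPM (168 to 199; 531 UMIs) in PPARg-low cells, a ratio of 0.913 (0.823 to 1.01), not called. The classes of cells went opposite ways. In ribosome-poor cells Rgs1 stood at 126 CPM (101 to 157) in PPARg-negative and 196 CPM (171 to 223) in PPARg-low cells, a ratio of 1.55 (1.20 to 2.02) that was called higher. With the class limit at 15% in place of 20% it was 1.47 (1.10 to 1.99), just short of a call. In ribosome-rich cells it stood at 210 CPM (197 to 222) and 175 CPM (156 to 195), a ratio of 0.832 (0.731 to 0.946), not called. PPARg-negative cells of the ribosome-poor class were thus lowest of the 4 sets of cells. Rgs1 was unevenly spread over cells: 134 of the 626 PPARg-negative cells with Rgs1 had 3 or more UMIs, with up to 11 in a cell, against 40 of 346 and up to 8 in PPARg-low cells. These counts take no account of the lower depth of the PPARg-low library. In cells thinned to 750 UMIs, 63 of 266 PPARg-negative and 35 of 183 PPARg-low cells with Rgs1 had 2 or more, with up to 4 in either library.

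Rgs10, a small R12 member that acts on Gi proteins, was the only member called lower. Its 3011 UMIs in PPARg-negative cells gave 511 CPM (493 to 529) and its 849 in PPARg-low cells 293 CPM (273 to 313), which is 1.75-fold lower (1.62 to 1.89). In ribosome-rich cells it was 548 CPM (528 to 569) and 377 CPM (349 to 407), and in ribosome-poor cells 210 CPM (177 to 248) and 165 CPM (142 to 190). The direction was the same in both classes, with ratios of 0.688 (0.631 to 0.749) and 0.783 (0.625 to 0.982), but neither reached the 1.5-fold limit. Ribosome-poor cells had lower Rgs10 than ribosome-rich cells in both libraries, and they made up more of the PPARg-low library. How much of the difference over all cells goes with that makeup was not separately tested. UMIs of Rgs10 were found in 1473 PPARg-negative and 500 PPARg-low cells, of which 404 and 84 had 3 or more, at unequal depth. In cells thinned to 750 UMIs, 149 of 677 PPARg-negative and 29 of 212 PPARg-low cells with Rgs10 had 2 or more.

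Rgs14, an R12 member that also binds Rap and inactive Gi alpha subunits, was not called over all cells. It stood at 56.1 CPM (50.2 to 62.5; 331 UMIs) in PPARg-negative and 59.6 CPM (51.1 to 69.2; 173 UMIs) in PPARg-low cells, a ratio of 1.06 (0.879 to 1.28). As with Rgs1 the classes differed in direction, but the other way round. In ribosome-poor cells Rgs14 was called lower, at 85.3 CPM (64.5 to 111) in PPARg-negative and 47.6 CPM (35.9 to 62.0) in PPARg-low cells, a ratio of 0.558 (0.378 to 0.825). Among those with up to 5% mitochondrial UMIs it was 0.652 (0.327 to 1.31), no longer called. In ribosome-rich cells it was 52.5 and 67.5 CPM, a ratio of 1.29 (1.03 to 1.60), not called. The median ratio of all measured genes there was 1.17, inside that interval.

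Rgs19, the RZ member first described as a partner of Gi alpha subunits, was at 90.9 CPM (83.4 to 98.9; 536 UMIs) in PPARg-negative and 72.7 CPM (63.2 to 83.2; 211 UMIs) in PPARg-low cells. The ratio was 0.80 (0.679 to 0.94), short of the 1.5-fold limit. Ribosome-poor cells gave 0.704 (0.469 to 1.06) and ribosome-rich cells 0.943 (0.781 to 1.13), so the intervals reached past 1 in each class.

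Within the classes, 3 members were called higher and 1 lower in ribosome-poor cells, where 6.82% of 6540 measured genes were called higher and 5.40% lower. In ribosome-rich cells 3 were called higher and 0 lower, against 17.2% and 3.92% of 8564 genes. Rgs2 and Rgs16 were in both sets of higher members, Rgs1 only in the ribosome-poor and Rgs3 only in the ribosome-rich set. The difference between classes was not tested for any member.

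**Figure D2:**
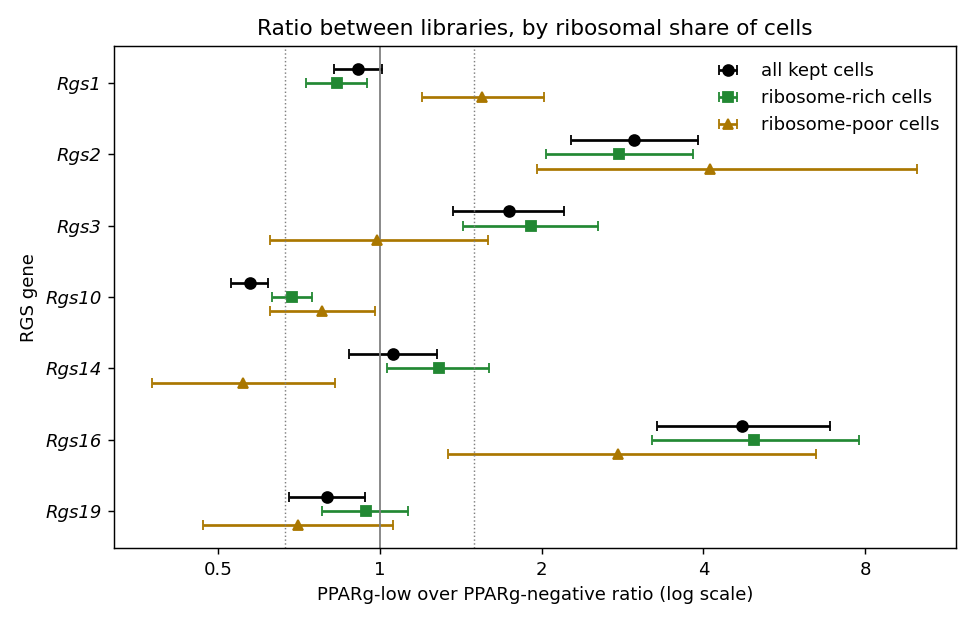
Ratio of PPARg-low to PPARg-negative CPM (log axis) for each RGS gene in all kept (black), ribosome-rich (green) and ribosome-poor (ochre) cells, with exact 95% intervals; dotted lines mark 1.5-fold in either direction. Rgs2 and Rgs16 lie right of the upper dotted line in all 3 sets, while Rgs1 and Rgs14 lie on opposite sides of 1 in the 2 classes.

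The share of cells with a transcript was compared after each cell was thinned to 750 UMIs, which left 2394 PPARg-negative and 1381 PPARg-low cells and dropped 239 and 238 shallower ones. Rgs10 was found in 28.3% (26.5 to 30.1) of PPARg-negative and 15.4% (13.5 to 17.4) of PPARg-low cells, and Rgs2 in 1.09% (0.711 to 1.59) and 3.48% (2.57 to 4.58). These were the members whose intervals did not overlap. Rgs16 was found in 0.710% (0.414 to 1.13) and 1.74% (1.12 to 2.57), intervals that overlapped slightly. At a depth of 1000 UMIs they were 0.658% (0.36 to 1.10) and 3.50% (2.50 to 4.75), and at 500 UMIs only 2 PPARg-negative cells had Rgs16, as many as had Lyz2, a myeloid gene.

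The other shares overlapped between the libraries. Rgs1 was found in 11.1% (9.88 to 12.4) of PPARg-negative and 13.3% (11.5 to 15.2) of PPARg-low cells, and Rgs14 in 5.22% and 3.69%. Both orders were opposite to that of the CPM and turned at depths of 500 and 1000 UMIs, so none is read from them. Rgs3 was found in 2.21% and 2.61%, and Rgs19 in 6.22% and 5.0%. Unthinned shares were 55.9% and 30.9% for Rgs10, 23.8% and 21.4% for Rgs1, 18.2% and 11.1% for Rgs19, 12% and 9.76% for Rgs14, 5.73% and 7.54% for Rgs3, 3.46% and 6.98% for Rgs2, and 1.56% and 4.76% for Rgs16. Cell types that should lack these genes were not present in numbers. As a level of stray RNA, Cd79a, of B cells, was in 0.0835% and 0.0724% after thinning, and Lyz2, of myeloid cells, in 0.167% and 0.145%, below every member at this depth.

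**Figure D3:**
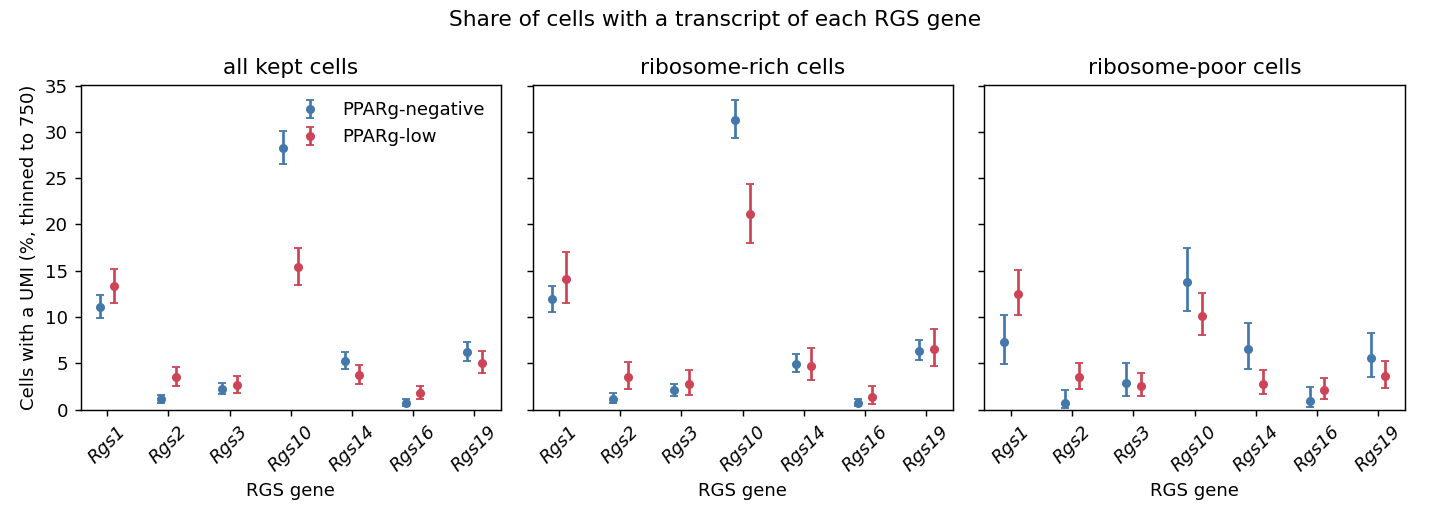
Percent of cells with 1 or more UMIs of each RGS gene after thinning to 750 UMIs, in PPARg-negative (blue) and PPARg-low (red) libraries, for all kept, ribosome-rich and ribosome-poor cells; bars are exact binomial 95% intervals. Rgs10 stands at 31.3% and 21.1% among ribosome-rich cells and stands at 13.8% and 10.1%, with overlapping intervals, among ribosome-poor cells.

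Rgs1 and Rgs10, the members with the most UMIs, were found together about as often as their single shares give. Both were in 80 of the 2394 thinned PPARg-negative cells, where the product of their shares gives 75.2, and in 25 of the 1381 PPARg-low cells, where it gives 28.1. Rgs10 and Rgs14 shared 26 PPARg-negative cells against 35.3 from the product, and Rgs10 and Rgs19 shared 43 against 42.1. Without thinning, where depth varies between cells, Rgs10 and Rgs14 shared 181 against 177 in PPARg-negative and 75 against 48.8 in PPARg-low cells. No order is read for that pair. Beside the effector receptor gene Klrg1, which many PPARg-low cells carried, Rgs10 was in 12.3% of thinned PPARg-low cells with Klrg1 and 17.4% of those without, and without thinning in 28.5% and 33.9%. Klrg1 itself was in 53.1% of ribosome-poor and 27.9% of ribosome-rich thinned PPARg-low cells. Within these classes the thinned shares of Rgs10 were closer, at 8.88% and 11.5% in ribosome-poor and 19.6% and 21.6% in ribosome-rich cells. Without thinning they were 49.6% and 56.6% in ribosome-rich cells, and the order was slightly reversed in ribosome-poor cells. The part of class in the difference was not tested. Over both classes, Rgs1 (14.8% and 12.2%) and Rgs2 (3.35% and 3.56%) were found in like shares of thinned cells with and without Klrg1. Rgs19 was in 3.0% and 6.39%, on 17 cells with both, but in 10.5% and 11.9% without thinning, so no order is read.

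Clustering without the RGS genes gave 10 clusters of cells, numbered 0 to 9. Cluster 0 (741 PPARg-negative and 17 PPARg-low cells) was resting Treg-like, cluster 4 (38 and 392) effector Treg-like with Il10 and Ccr8 among its leading genes, cluster 7 (164 and 9) interferon response-like and cluster 8 (63 and 95) cell cycle-like. The others had too few fixed markers for a name. Cluster 1 (61 and 631) was led by Trf, Pdcd1, Epcam and Id2, cluster 2 (623 and 12) by Gpr83, Bcl2 and Mbnl3, and cluster 3 (379 and 233) by Ccl5, Ccr2 and Cxcr3. Cluster 5 (291 and 50) was led by Ssbp2 and Bcl2, cluster 6 (162 and 175) by Tbc1d4, Gsta4 and Id3, and cluster 9 (111 and 5) by Gadd45g and Nr4a1. Clusters 0, 2, 7 and 9 were nearly all PPARg-negative and cluster 4 nearly all PPARg-low, so there the cluster and the library cannot be told apart. Clusters 1, 3, 5, 6 and 8 had at least 50 cells of each library and allow the 2 to be compared.

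Levels by cluster are given within a library, since the libraries fill the clusters unequally. They are given and ranked only where the library has 50 or more cells in the cluster. In each library Rgs10 was highest in cluster 6 and lowest in cluster 8, of the clusters with 50 or more of its cells. In PPARg-negative cells it stood at 691 CPM (615 to 773) in cluster 6, 589 in cluster 2, 513 in cluster 0, 509 in cluster 5, 491 in cluster 1, 475 in cluster 7, 422 in cluster 9, 338 in cluster 3 and 200 CPM (139 to 278) in cluster 8. Neighbours in this order overlapped except cluster 2 with 0 and cluster 3 with 8. In PPARg-low cells it stood at 601 CPM (528 to 681) in cluster 6, clear of all others, then at 275 in cluster 1, 250 in cluster 3, 215 in cluster 4, 204 in cluster 5 and 122 CPM (81.9 to 176) in cluster 8, where neighbours overlapped. Clusters 1, 3, 4, 5 and 8 had a median ribosomal share of 11.7% to 15.1% of UMIs and the others 30.1% to 39.8%. In PPARg-low cells all 5 of the former stood below cluster 6, while in PPARg-negative cells clusters 1 and 5 stood among the others.

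Within all 5 clusters compared, the ratio for Rgs10 was under 1. It was called lower in cluster 1, at 491 CPM in PPARg-negative and 275 in PPARg-low cells, a ratio of 0.561 (0.405 to 0.795). It was also called lower in cluster 5, at 509 and 204 CPM, a ratio of 0.400 (0.197 to 0.728) that rests on 11 PPARg-low UMIs. The ratios of 0.740 in cluster 3, 0.870 in cluster 6 and 0.612 in cluster 8 were not called.

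For Rgs1 the order in PPARg-negative cells was cluster 2 at 329 CPM (302 to 358), cluster 9 at 265, cluster 7 at 249 (202 to 302), cluster 5 at 162 (128 to 201), cluster 6 at 151, cluster 1 at 148, cluster 3 at 131, cluster 0 at 121 (105 to 140) and cluster 8 at 74.1 CPM (39.5 to 127). Only clusters 7 and 5 did not overlap as neighbours, and clusters 2, 9 and 7 stood clear of cluster 0. In PPARg-low cells it was cluster 1 at 272 CPM (239 to 308), cluster 5 at 259, cluster 8 at 181, cluster 4 at 161 (134 to 193), cluster 3 at 107 and cluster 6 at 98.5 CPM (70.4 to 134). Neighbours overlapped, and cluster 1 stood clear of clusters 4, 3 and 6. The ratio between the libraries was called higher in cluster 1 (1.83, 1.05 to 3.49) and cluster 8 (2.44, 1.29 to 4.95), and lower in cluster 6 (0.651, 0.428 to 0.978). Clusters 1 and 8 each held 13 PPARg-negative UMIs.

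Rgs16 in PPARg-low cells was highest in cluster 6 at 73.9 CPM (49.9 to 105) and cluster 4 at 60.4 CPM (44.2 to 80.5), which overlapped. Cluster 1 stood below both at 24.0 CPM (15.1 to 36.4), and clusters 3, 5 and 8 held 1 or 2 UMIs each. Of the clusters with 50 or more PPARg-negative cells, cluster 6 also had the highest level, at 27.5 CPM (14.2 to 48.1). The 38 PPARg-negative cells of cluster 4 held 6 UMIs and were too few for a level to be given. Every cluster held 12 or fewer PPARg-negative UMIs. In cluster 6, which both libraries shared about evenly, the ratio was 2.68 (1.33 to 5.76), called higher. Cluster 3, also shared, held 5 PPARg-negative and 2 PPARg-low UMIs and was not called. Other clusterings, which number their clusters anew, differed. At resolution 0.5, cluster 1 held 17 PPARg-negative and 96 PPARg-low UMIs, at 57.8 and 48.8 CPM. Its ratio was 0.843 (0.5 to 1.51), and neither of the 2 clusters compared was called. With another random seed, 1 of 3 was called higher (3.4, 1.8 to 6.62), and cluster 1 was at 0.567 (0.268 to 1.38). At resolution 2.0 the only cluster compared was called higher (2.94, 1.31 to 7.43).

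Rgs2 in PPARg-low cells was highest in cluster 1 at 72.1 CPM (55.8 to 91.8), then stood at 56.1 (35.9 to 83.4) in cluster 3, 43.3 (29.8 to 60.8) in cluster 4, 21.1 (6.84 to 49.2) in cluster 8 and 17.2 CPM (6.93 to 35.5) in cluster 6. Neighbours overlapped, and cluster 1 stood clear of clusters 8 and 6. In PPARg-negative cells cluster 1 stood at 57.0 CPM (18.5 to 133), on 5 UMIs, and the others at 19.7 CPM or less, all overlapping it. In cluster 3 Rgs2 was called higher in PPARg-low cells, at 56.1 against 14.2 CPM, a ratio of 3.94 (1.77 to 9.64). Clusters 1 (1.26) and 6 (0.939) were not called.

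Rgs3, Rgs14 and Rgs19 had no call in any shared cluster. Rgs3 in PPARg-low cells ranged from 55.1 CPM (39.7 to 74.5) in cluster 4 to 25.3 CPM (9.28 to 55.0) in cluster 8, which overlapped. Over clusters with 50 or more PPARg-negative cells, Rgs3 in that library ranged from 50.5 CPM (31.6 to 76.4) in cluster 6 to 14.9 CPM (4.07 to 38.3) in cluster 9. The 38 PPARg-negative cells of cluster 4 held 8 UMIs and were too few for a level to be given. Rgs14 was highest in cluster 3 in both libraries, at 83.7 CPM (62.7 to 110) in PPARg-negative cells and with an interval of 72.7 to 135 CPM in PPARg-low cells. Rgs19 in PPARg-low cells was also highest in cluster 3, at 124 CPM (92.8 to 162), and its PPARg-negative levels overlapped from 34.2 CPM, on 3 UMIs, in cluster 1 to 101 CPM (86.2 to 117) in cluster 2. The effector Treg-like cluster 4 was lowest for both in PPARg-low cells, at 31.5 CPM (20.2 to 46.9) for Rgs14 and 51.2 CPM (36.4 to 69.9) for Rgs19, clear of cluster 3.

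**Figure D4:**
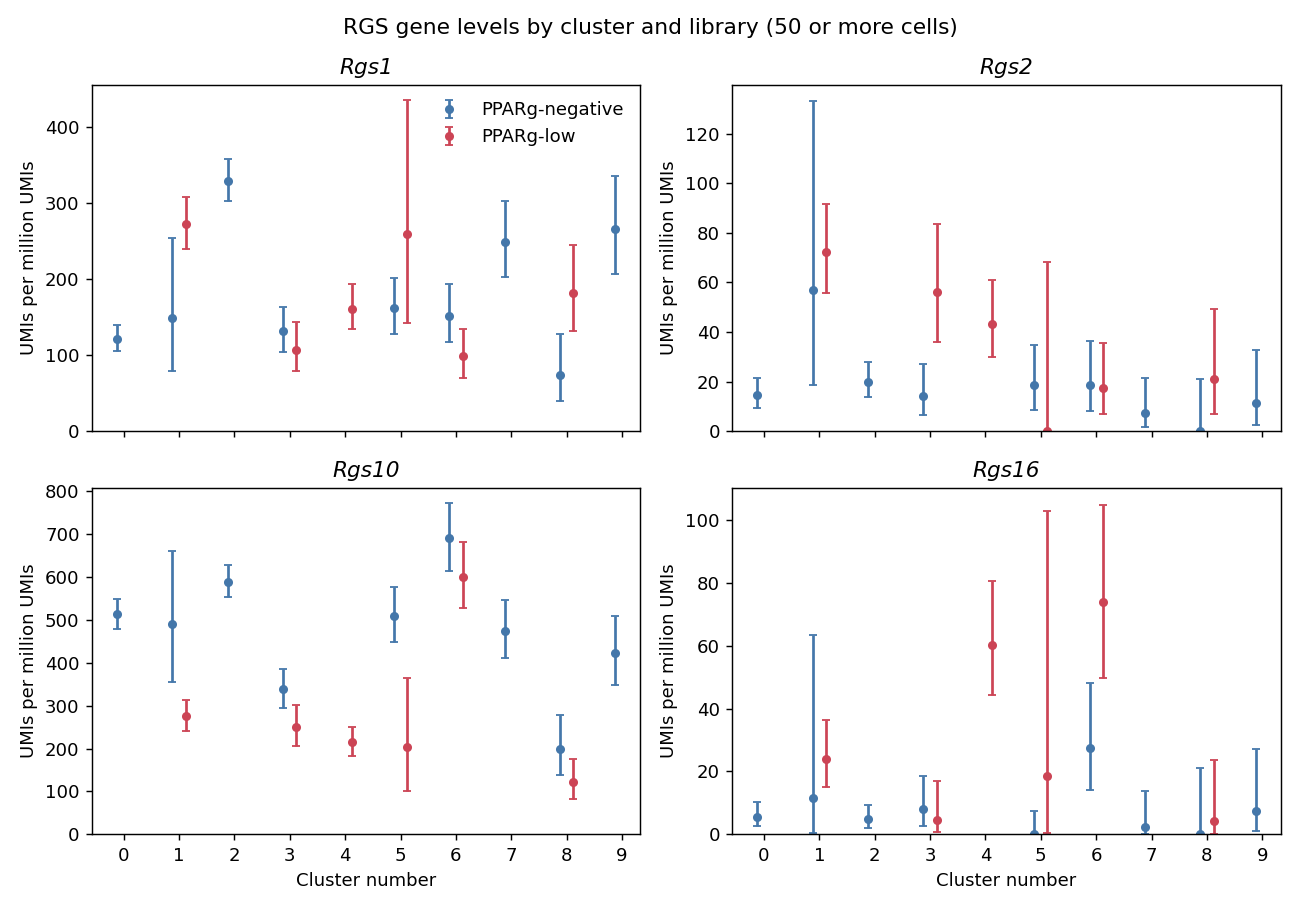
CPM of Rgs1, Rgs2, Rgs10 and Rgs16 by cluster number for PPARg-negative (blue) and PPARg-low (red) cells, shown where a library has 50 or more cells in the cluster; bars are exact Poisson 95% intervals. Rgs10 is lower in PPARg-low cells in each of the 5 clusters with both libraries, and Rgs16 is highest in clusters 6 and 4 of the PPARg-low library.

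The genes whose pattern was most like a member's were sought over 15 points, each a cluster in a library with at least 50 cells, among 3513 genes with 300 or more UMIs. Pearson's r of log2(CPM + 10) is given as a description. The points share 2 libraries and differ in depth and ribosomal share. Rgs10 was most like the ribosomal protein gene Rps15a (r = 0.927), the initiation factor gene Eif3f (0.917) and Rps23 (0.892). Rgs1 was most like Socs1 (0.729), a feedback inhibitor of cytokine signals, Smim11 (0.711) and Gabarapl2 (0.691). For Rgs14 they were Sike1 (0.850), Jakmip1 (0.819) and Sp100 (0.796), and for Rgs19 Tmem71 (0.895), Klhl6 (0.830) and Dpcd (0.828). The members were little like each other, with r of 0.07 for Rgs1 and Rgs10, 0.35 for Rgs14 and Rgs19, and -0.34 for Rgs1 and Rgs14. Rgs2, Rgs3 and Rgs16 had too few UMIs to be compared.

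Of the 17 other genes counted with the family, the binding protein genes Rgs7bp and Rgs9bp included, 12 had 0 UMIs in kept cells of both libraries. Among these 12 were Rgs7bp, Rgs13, which lies between Rgs2 and Rgs1, and Rgs18 and Rgs21 on the far side of Rgs1. With a floor of 3 UMIs for a count of 0, they stood at or under 0.509 CPM in PPARg-negative and 1.03 CPM in PPARg-low cells. The PPARg-negative and PPARg-low cells held 11 and 10 UMIs of Rgs9, 13 and 3 of Rgs11, 4 and 9 of Rgs12, and 0 and 1 each of Rgs8 and Rgs9bp.

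Genes outside the family that carry an RGS-like domain include the receptor kinases that desensitise receptors. Of 14 listed, 11 were measured, 3 were called higher in PPARg-low cells and 0 lower, with a median log2 ratio of 0.41. The counts of this and the next lists stand beside 24.2% of all measured genes called higher and 4.47% lower, and their medians beside 0.29. Those higher were Snx14, a sorting nexin (2.03, 1.57 to 2.63), the anchoring protein gene Akap10 (1.58, 1.07 to 2.33) and the receptor kinase gene Adrbk1, also called Grk2 (1.57, 1.36 to 1.81). In ribosome-poor cells 0 of 8 were called higher, against 6.82% of all genes there.

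Among the alpha subunits on which RGS proteins act, 3 of 8 measured were called higher and 0 lower. Gnaq, of the Gq class, stood at 6.44 CPM in PPARg-negative and 26.2 in PPARg-low cells, a ratio of 4.06 (2.72 to 6.17). Gna15, also of the Gq class, stood at 23.4 and 67.5 CPM (2.89, 2.31 to 3.62), and Gna12 at 4.92 and 9.30 CPM (1.89, 1.08 to 3.31). The main Gi alpha gene of lymphocytes, Gnai2, was at 548 and 683 CPM, a ratio of 1.25 that is close to the median of all genes. Within ribosome-poor cells the ratio of Gna15 was 0.920 and that of Gnaq 2.18 (1.14 to 4.52). Of the 8 beta and gamma subunits measured, Gng10 was higher (1.65, 1.03 to 2.65), and Gng12 (0.431, 0.290 to 0.624) and Gngt2 (0.468, 0.325 to 0.661) were lower. Of the 5 arrestins and G protein regulators measured, Pdcl (1.65, 1.22 to 2.23) and Arrb1 (1.58, 1.07 to 2.33) were higher.

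The receptors upstream moved in both directions. Of 14 chemokine receptor genes measured, 7 were called higher in PPARg-low cells and 3 lower (24.2% and 4.47% of all genes), with a median log2 ratio of 0.78. Ccr8, a receptor of tissue Tregs, stood at 3.56 CPM in PPARg-negative and 71.7 in PPARg-low cells (20.1, 12.8 to 33.2). Cxcr6 (7.07, 4.49 to 11.5) and Ccr3 (4.27, 3.10 to 5.95) were also higher. Lower were the lymph node homing receptor gene Ccr7, at 163 and 18.3 CPM (8.95-fold lower, 6.79 to 12), Ccr9 (8.53-fold lower) and the follicle homing receptor gene Cxcr5 (1.52-fold lower). In ribosome-poor cells the list ran the other way, with 2 of 12 higher and 6 lower (6.82% and 5.40% of all genes there) and a median log2 ratio of -0.73, against 0.02 over all genes.

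Of 21 lipid and other receptor genes measured, 12 were called higher and 4 lower, with a median of 0.65. In ribosome-poor cells 4 of 20 were called higher and 5 lower, with a median of -0.03 (6.82% and 5.40% of all genes there). In ribosome-rich cells 10 of 20 were called higher and 5 lower, with a median of 0.58 (17.2% and 3.92% of all genes there). Over all kept cells, the leukotriene receptor gene Ltb4r1 (6.45, 4.60 to 9.19) and the lysolipid receptor gene Gpr55 (5.06, 3.58 to 7.26) were higher. Gpr83 (8.36-fold lower), Gpr18 (3.84-fold lower) and S1pr1, the sphingosine 1-phosphate receptor gene whose signal Rgs1 is known to restrain, were lower. S1pr1 stood at 162 CPM in PPARg-negative and 79.6 in PPARg-low cells (2.04-fold lower, 1.76 to 2.36), and was called lower in both classes of cells.

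Downstream of the G proteins, 2 of 13 effector genes were called higher, 1 lower and 10 not called, with a median of 0.32. In ribosome-poor cells 0 of 10 were called higher and 1 lower, with a median of -0.38 (6.82% and 5.40% of all genes there). In ribosome-rich cells 2 of 13 were called higher and 2 lower, with a median of 0.11 (17.2% and 3.92% of all genes there). Over all kept cells, Prex1, a Rac exchange factor driven by beta-gamma subunits (1.95, 1.61 to 2.36), and Plcb4, a phospholipase C driven by Gq (2.35, 1.49 to 3.70), were higher. Rasgrp2, a Rap exchange factor in integrin activation, was 1.99-fold lower (1.70 to 2.34).

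Of 21 immediate early genes measured, a class that is switched on quickly by receptor signals, 14 were called higher and 1 lower (24.2% and 4.47% of all genes), with a median of 1.01. Fos stood at 4.58 and 68.6 CPM (15, 9.99 to 23.3), Dusp1 at 40.0 and 223 CPM (5.58, 4.8 to 6.5), and Ier3 at 3 and 42 UMIs (28.5, 9.09 to 143). Klf2, a factor of resting T cells that promotes S1pr1, was 2.96-fold lower (2.76 to 3.17). Ribosome-poor cells gave the list a median of 0.70 and ribosome-rich cells 0.76. Of 8 cyclic AMP responsive genes measured, 6 were called higher and 1 lower, with a median of 1.10. Besides Dusp1, Fosl2 (4.67, 2.14 to 11) and Crem, a factor of the cyclic AMP response (2.41, 2.03 to 2.87), were higher, and the phosphodiesterase gene Pde4b was 1.64-fold lower. Rgs2 and Rgs16, with log2 ratios of 1.57 and 2.24, lay above both of these medians, and the other 5 members lay below.

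**Figure D5:**
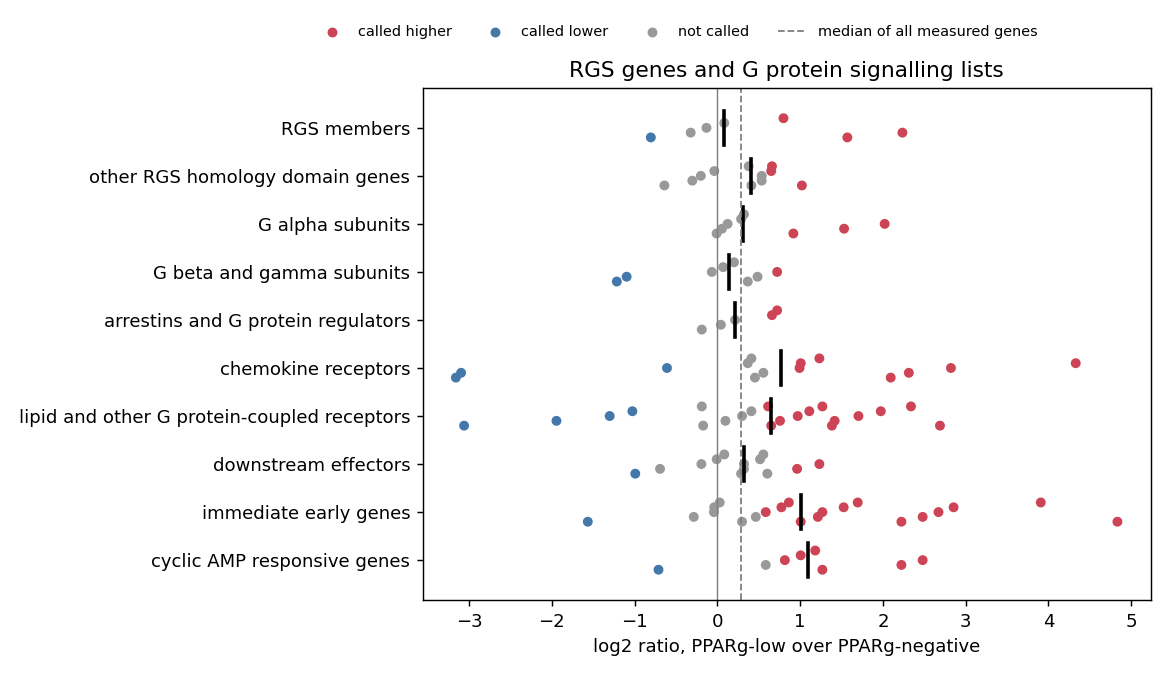
Log2 ratio of PPARg-low to PPARg-negative CPM in all kept cells for each measured gene of the RGS members and of 9 lists of G protein signalling and response genes; red, blue and grey points are called higher, called lower and not called, black bars are list medians and the dashed line is the median of all measured genes at 0.29. The members spread to both sides of the dashed line, and the receptor lists reach further to both sides.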

How the data were processed

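Single-cell 3' RNA-seq of splenic Tregs was measured in 2 libraries, 1 per group. The deposited matrices hold UMI counts per gene and cell, unnormalised, as whole numbers; the submitters' processing notes name Cell Ranger 2.1.0 with mm10 for what the authors ran. How the 2902 and 1992 deposited barcodes were selected is not given in the sources used here.

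A limit of 10% mitochondrial UMIs removed 269 PPARg-negative and 373 PPARg-low cells, and every remaining cell had at least 200 genes. Scrublet marked 8 (0.304%) and 11 (0.679%) cells as doublets, which were kept. The libraries shared 5 barcodes. UMIs were summed per library, divided by total UMIs and given exact Poisson intervals, and ratios exact conditional binomial intervals. A single UMI is 0.170 CPM in the PPARg-negative and 0.345 CPM in the PPARg-low library. UMIs are counted molecules, and intervals leave out variation between mice.

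Clusters were built with scanpy 1.11.5 and leidenalg 0.10.2 at resolution 1.0, on 2000 variable genes that exclude the RGS family, antigen receptor, ribosomal protein and mitochondrial genes, with 20 components and 15 neighbours. Ratios and intervals used Python 3.11.15, numpy 2.4.6 and scipy 1.17.1. In simulated Poisson counts of 9224 genes, 200 of them changed, 96.0% of intervals for unchanged genes and 97.0% of those for changed genes covered the simulated ratio. Of the unchanged genes 1.54% were called. The intervals assume the same Poisson counts, so the simulation checks only their computation. It holds no spread between cells or mice and gives no rate of false calls for these libraries.

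The named genes are the 7 members, up to 3 called genes per direction in each list, by the interval bound nearest to 1, and the 3 genes most like a member with 300 or more UMIs, with 1 gene that the rule names not reported here; Gnai2, Cd79a, Lyz2, Klrg1 and Pparg were added for context. The members and lists were chosen with earlier results of these data known. RefSeq promoter windows were matched by symbol for 5 of 7 members, not for Rgs1 and Rgs14. Motifs were searched on both strands.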

Additional observations from a re-analysis of the deposited data

Results flagged for a closer look

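For 2 members the ratio of PPARg-low to PPARg-negative CPM lay on opposite sides of 1 in the 2 classes of cells, with the intervals of both classes clear of 1. Rgs1 had a ratio of 1.55 (1.20 to 2.02) in ribosome-poor and 0.832 (0.731 to 0.946) in ribosome-rich cells. Rgs14 had a ratio of 0.558 (0.378 to 0.825) in ribosome-poor and 1.29 (1.03 to 1.60) in ribosome-rich cells. With 1 library per group the difference between the classes was not tested. Ribosome-poor cells also had fewer UMIs and a higher mitochondrial share in both libraries, and the part of these in the 2 ratios was not tested.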

How the results depend on the processing

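Rgs2 and Rgs16 stayed called higher under every alternative run on all kept cells and within each class, except that Rgs16 in ribosome-poor cells of up to 5% mitochondrial UMIs was 2.35 (0.935 to 7.02). In ribosome-poor cells alone the ratios were 1.55 for Rgs1, 0.990 for Rgs3, 0.783 for Rgs10, 0.558 for Rgs14, 0.892 for Snx14, 0.920 for Gna15, 1.14 for Ccr9 and 0.682 for Plcb4. In ribosome-rich cells alone Rgs10 was 0.688, 0 members were called lower and the members' median log2 ratio was 0.36. Relative to the median of all genes, Rgs3 was 1.42 and Rgs19 0.656, 2 members were lower and the members' median was -0.20. Rgs3 was 1.45 against totals without ribosomal and mitochondrial genes and 1.21 in cells thinned to 750 UMIs. At a limit of 2-fold, 0 members were called lower. Alternatives for the classes were chosen after seeing the data: Rgs1 in ribosome-poor cells was 1.47 with the class limit at 15%, Rgs14 there was 0.652 at up to 5% mitochondrial UMIs, Rgs19 there was 0.616 in cells with 500 or more genes, and Rgs10 in ribosome-rich cells was 0.589 relative to the median. The causes were not tested. Of the 91 ratios of members over all cells under alternatives, 82 kept their call, or the lack of one. Of 396 such ratios of genes named from the lists, 345 kept their call, 47 lost it and 4 crossed to the other side of 1. Of 216 counts of called genes in the lists, 34 moved by more than 1.5-fold or to or from 0. Of 21 highest cluster levels of members, 6 moved outside their interval. Rgs1 and Rgs14, not called, lay on either side of 1 with the setting: thinned to 750 UMIs they were 1.12 and 0.696. Over both libraries, the highest level of Rgs1 in a cluster was 328 CPM, and 222 to 473 CPM at other cluster resolutions. No paired analysis was possible because each group is 1 library. With few UMIs for Rgs2 and Rgs16, differences within most clusters at resolution 1.0 were not detectable at this depth. For Rgs16 at resolution 0.5, cluster 1 held 17 PPARg-negative and 96 PPARg-low UMIs. Its ratio of 0.843 (0.5 to 1.51) was not called, and the interval lay below the ratio of 4.71 over all cells. The part of cluster makeup in the ratio over all cells was not tested.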
